A study of Mus musculus with 12 samples.

Results

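The testis-specific serine kinases are encoded in the mouse by Tssk1, Tssk2, Tssk3, Tssk4, Tssk5 and Tssk6. All 6 genes were found by gene symbol in both deposited count tables, among 51826 entries for sperm and 23502 entries for testes. The study asked what XAP5 and its paralog XAP5L do to gene expression in the male germline, and it sequenced poly(A) RNA of 12 libraries in 4 groups of 3. Mature sperm of P56 mice came from WT animals and from animals with a global CRISPR/Cas9 deletion of Xap5l (Xap5l KO), and testes of P16 mice came from WT animals and from animals in which floxed Xap5 was deleted by Stra8-GFPCre, a Cre of the germline (Xap5 cKO). The knockout lines were made on the C57BL/6J background, and the study's text describes the controls of the Xap5 cKO mice as Xap5 fl/Y where the labels read WT. The labels number the replicates without saying whether they came from separate animals, so the p-values measure the spread between these libraries, which may be technical.

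Tssk kinases belong to the branch of protein kinases that holds AMPK and its relatives, and they are known for their expression in spermatids, the haploid cells that become sperm. TSSK1 and TSSK2 bind the substrate TSKS in the chromatoid body and are needed together for spermiogenesis. TSSK4 acts on ODF2, a protein of the outer dense fibers of the tail, and TSSK6 is needed for compaction of the sperm nucleus and for the placement of IZUMO1 on the sperm head. Mature sperm transcribe little, so their RNA is largely carried over from spermatids.

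On GRCm38, Tssk1 (ENSMUSG00000041566.3, chr16:17894223-17897922, plus strand) and Tssk2 (ENSMUSG00000045521.7, chr16:17898637-17900024, plus strand) are neighbors, each with a single exon, separated by 714 bases. Tssk6 (ENSMUSG00000047654.6, chr8:69902184-69903518, plus strand) also has a single exon, of which 375 bases overlap exons of Ndufa13 on the other strand. Tssk3 (ENSMUSG00000000411.7, chr4:129489014-129491022, minus strand) has 2 exons, and Tssk4 (ENSMUSG00000007591.15, chr14:55650184-55652539, plus strand) has 3 to 4 exons in 7 annotated transcripts. Tssk5 (ENSMUSG00000060794.8, chr15:76371952-76374938, minus strand) has 2 to 8 exons in 3 transcripts. No stretch of 150 bases in Tssk1 to Tssk5 recurred in the transcripts of another gene, whereas 226 of 1186 such stretches of Tssk6 (19.1%) also lay in Ndufa13 transcripts. Whether the counting used strand is not given in the sources used here, so Tssk6 values may hold reads of Ndufa13. With stretches of 75 bases, 75 were shared between Tssk1 and Tssk2 (2.07% of those of Tssk1, 5.71% of those of Tssk2). The treatment of multimapping reads is not given either, so values of Tssk1 and Tssk2 may each hold reads of the other.

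RefSeq promoters (250 bases before to 50 after the start, GRCm38.p6) were matched for 5 of the 6 genes, all but Tssk5. Among their 10 pairs the longest local alignment joined the neighbors Tssk1 and Tssk2, with 41 identical bases of 49 aligned. The aligned stretches are shown because they are a feature that the paired genes share just upstream of their starts. They run from 53 to 2 bases upstream of the start in Tssk1 (chr16:17894150-17894201, plus strand) and from 63 to 15 bases upstream in Tssk2 (chr16:17898574-17898622, plus strand), and capitals mark the bases identical between them.
Tssk1: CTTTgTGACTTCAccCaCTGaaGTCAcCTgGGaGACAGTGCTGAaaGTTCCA
Tssk2: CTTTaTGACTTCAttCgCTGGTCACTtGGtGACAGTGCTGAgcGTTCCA
The stretches hold identical runs of 8 and 11 bases. The 11-base run, GACAGTGCTGA, occurred on either strand in 6 of all 32851 promoters, and the 8-base run, TGACTTCA, in 498.

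The other promoters differed in their motif content. Both strands of each promoter were searched for a CRE half-site (TGACG, in 20.8% of all promoters), a GC box (GGGCGG, 35.7%), an X-box half-site (GTTNCC, 45.3%), a FOX motif (TGTTTAC, 3.65%), a TATA box (TATAAA, 13.6%) and a SOX motif (ACAAT, 31%). The X-box half-site occurred in all 5 promoters and the SOX motif in those of Tssk2, Tssk3 and Tssk6. The CRE half-site and the GC box, the latter at 2 places, were found in the Tssk6 promoter alone of the 5, and none held the FOX motif or the TATA box. The upstream 250 bases of Tssk4 (chr14:55649934-55650183, plus strand) and Tssk6 (chr8:69901934-69902183, plus strand) are shown as the promoters of a gene that rose in Xap5l KO sperm and of an abundant gene with no called difference, with all matches in capitals.
Tssk4: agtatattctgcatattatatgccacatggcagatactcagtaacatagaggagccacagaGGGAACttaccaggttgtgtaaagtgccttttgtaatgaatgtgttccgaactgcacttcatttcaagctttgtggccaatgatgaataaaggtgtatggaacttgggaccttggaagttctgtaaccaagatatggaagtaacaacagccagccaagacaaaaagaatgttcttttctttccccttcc
Tssk6: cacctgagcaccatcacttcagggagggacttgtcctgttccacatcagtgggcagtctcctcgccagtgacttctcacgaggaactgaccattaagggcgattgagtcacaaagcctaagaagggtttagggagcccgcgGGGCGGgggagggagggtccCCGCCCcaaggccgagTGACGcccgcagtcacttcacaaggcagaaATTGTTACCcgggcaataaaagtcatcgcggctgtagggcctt
In Tssk6 the SOX motif and the X-box half-site overlap. GC content was 43.3% in the Tssk4 promoter and 60.7% in the Tssk6 promoter, against a median of 52.7% over all promoters. It was 50.7% for Tssk1, 59.7% for Tssk2 and 59.3% for Tssk3. Whether any promoter feature goes with the differences in sperm was not tested.

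Sperm libraries held 38881197 to 52308452 counts and testis libraries 32251198 to 36759054. Mitochondrial genes took 10.5 to 27.4% of the sperm counts. The deleted genes were checked first. Fam50b, which encodes XAP5L, was counted 574, 440 and 419 times in the WT sperm libraries, against 18, 23 and 8 times in the Xap5l KO libraries (log2 fold change -5.15, SE 0.466, edgeR adjusted p = 0.0118). Fam50a, which encodes XAP5, was counted 819, 811 and 988 times in the WT testes libraries, against 673, 616 and 651 times in the Xap5 cKO libraries (log2 fold change -0.33, SE 0.126, edgeR adjusted p = 0.0495), a fall short of the 2-fold threshold in tissue that also holds somatic cells. In Xap5 cKO testes Fam50b was lower as well (log2 fold change -6.48), past both thresholds and by more than Fam50a. In Xap5l KO sperm Fam50a was also lower at an edgeR adjusted p under 0.05, but short of 2-fold (log2 fold change -0.76).

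In sperm, Tssk1, Tssk4 and Tssk5 were upregulated in Xap5l KO, while Tssk2, Tssk3 and Tssk6 were not called. A gene was called up- or downregulated when edgeR's quasi-likelihood test gave a Benjamini-Hochberg adjusted p under 0.05 over all 20945 genes tested and the fold change was above 2. By this rule 3 of the 6 genes rose, against 7.59% of all genes tested. None was called lower by edgeR, by DESeq2 or at an unadjusted p under 0.05 with the fold threshold, against 1.27% of all genes. Without the fold threshold the counts were again 3 higher and 0 lower, against 9.02% and 3.07% of all genes. The median log2 fold change was 1.03 over the 6 genes and -0.08 over all genes tested. Levels are given as CPM, which are counts scaled to the library size after TMM, as mean ± SD of 3 libraries.

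Tssk5 had the highest fold change of the family and the lowest level. It was counted 77, 67 and 81 times in the WT libraries and 368, 440 and 384 times in the Xap5l KO libraries. The groups did not overlap, and the level rose from 1.89 ± 0.392 to 8.35 ± 1.99 CPM (SD, n = 3 each), a log2 fold change of 2.14 (SE 0.275, edgeR adjusted p = 0.0118). Tssk4, the kinase of ODF2, was counted 443, 437 and 474 times in the WT libraries, against 1814, 2650 and 1584 times in the Xap5l KO libraries. Again the Xap5l KO libraries all exceeded the WT libraries, at 42.3 ± 13.2 against 11.4 ± 1.81 CPM (SD, n = 3 each), a log2 fold change of 1.90 (SE 0.275, edgeR adjusted p = 0.0122).

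The neighbors Tssk1 and Tssk2, whose proteins share the partner TSKS, lay on different sides of the threshold. Tssk1 was counted 1198, 1136 and 1031 times in the WT libraries, against 2974, 4637 and 3652 times in the Xap5l KO libraries. Its level rose from 28.5 ± 7.17 to 77.1 ± 12.5 CPM (SD, n = 3 each) with no overlap, a log2 fold change of 1.43 (SE 0.246, edgeR adjusted p = 0.0141). Tssk2 was counted 22047, 16352 and 19799 times in the WT libraries, against 30185, 37466 and 43270 times in the Xap5l KO libraries. In CPM the lowest Xap5l KO library, at 676, was just above the highest WT library, at 669, and the log2 fold change of 0.62 (SE 0.292) had an edgeR adjusted p of 0.168. With Tssk1, Tssk4 and Tssk5, Tssk2 made 4 of the 6 genes whose groups did not overlap upward, against 19.2% of all genes tested. The difference between Tssk1 and Tssk2 in log2 level per library, on the scale of CPM per kb of exon, was -5.62, -5.26 and -5.68 in WT and -4.76, -4.43 and -4.98 in Xap5l KO. All Xap5l KO libraries were thus higher than all WT libraries in Tssk1 relative to Tssk2, by 0.80 on average. The two-sided exact permutation test gave p = 0.1, the smallest that 3 libraries against 3 allow (0.136 after Benjamini-Hochberg adjustment over all 15 pairs of Tssk genes). The ratio did not overlap between genotypes in 11 of these 15 pairs, so a pair without overlap is the common outcome in this family.

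Tssk3 and Tssk6 had overlapping groups. Tssk3, a kinase of spermatids, was counted 6303, 3767 and 4326 times in the WT libraries, against 2777, 3736 and 10054 times in the Xap5l KO libraries. WT replicate 1 and Xap5l KO replicate 3 were both well above the other libraries, at 191 and 173 CPM against 67.5 to 93.4 CPM in the rest. The log2 fold change was -0.23 (SE 0.409, edgeR adjusted p = 0.716). Tssk6 was counted 26395, 14182 and 17517 times in the WT libraries, against 15007, 20656 and 27340 times in the Xap5l KO libraries, with WT replicate 1 highest at 801 CPM and the other 5 libraries at 337 to 469 CPM. Its log2 fold change was -0.25 (SE 0.349, edgeR adjusted p = 0.627).

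**Figure D1:**
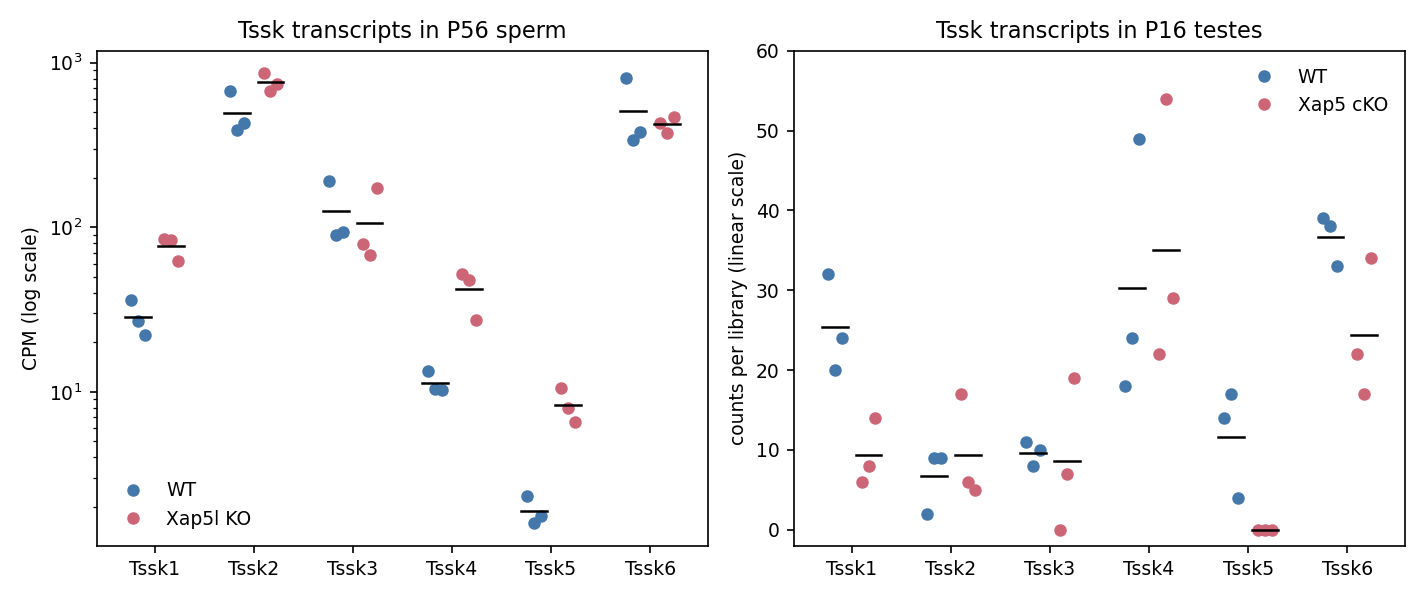
Levels of the 6 Tssk genes in each library, as CPM on a log scale in P56 sperm (left) and as counts on a linear scale in P16 testes (right), with a point per library and a bar at the mean of each group of 3. In sperm the WT and Xap5l KO points of Tssk1, Tssk4 and Tssk5 are well apart and those of Tssk3 and Tssk6 overlap, and in testes no gene exceeds 54 counts in any library.

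The 3 calls did not survive the loss of every library. Tssk1, Tssk4 and Tssk5 stayed called when replicate 1 of WT or replicates 1 or 3 of Xap5l KO were left out. All 3 fell short of the threshold when the library omitted was replicate 2 of WT (edgeR adjusted p 0.0734 to 0.0803), replicate 3 of WT (0.0812 to 0.0871) or replicate 2 of Xap5l KO (0.0565 to 0.0617). Their log2 fold changes over these fits stayed at 1.28 to 1.64 for Tssk1, 1.72 to 2.21 for Tssk4 and 1.94 to 2.37 for Tssk5. The lowest adjusted p of any gene in the sperm comparison was 0.0118, which Tssk5 shared. Without WT replicate 1 the log2 fold change turned from negative to positive for Tssk3 (0.21) and Tssk6 (0.23), neither called, and for Tssk2 it was 0.89 (edgeR adjusted p = 0.0467), under the fold threshold.

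**Figure D2:**
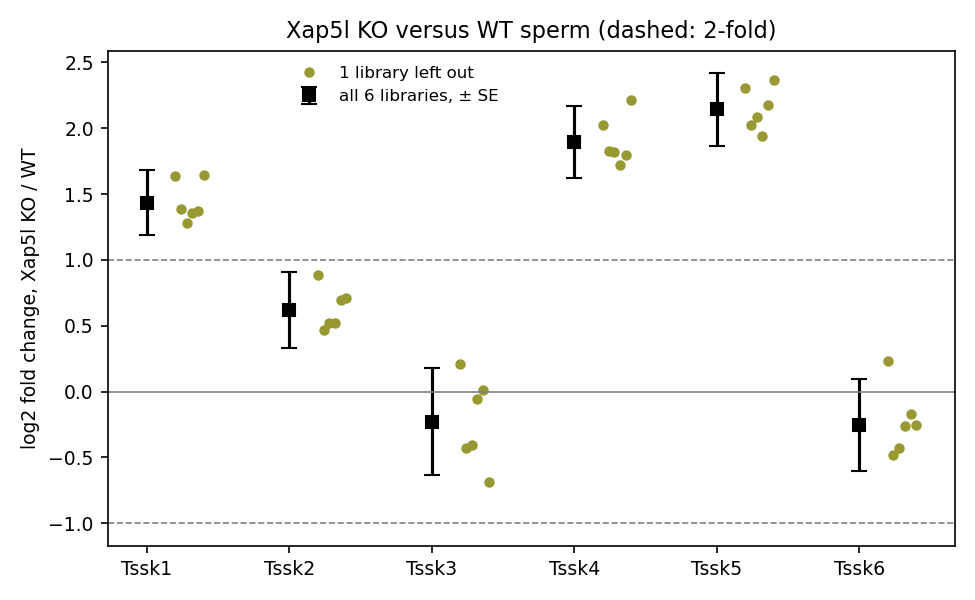
Log2 fold change between Xap5l KO and WT sperm for each Tssk gene, with squares and SE bars for all 6 libraries and smaller points for the 6 fits that each leave out a library. Tssk1, Tssk4 and Tssk5 lie above the dashed 2-fold line in every fit, Tssk2 lies between 0.46 and 0.89, and the points of Tssk3 and Tssk6 fall on both sides of 0.

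Per kb of exon, Tssk6 and Tssk2 were the most abundant Tssk transcripts in WT sperm, at 379 ± 192 and 357 ± 109 CPM per kb (SD, n = 3 each), and their libraries overlapped. Tssk3 followed at 97.4 ± 45.0 CPM per kb and lay below both in every library. Tssk1, at 7.71 ± 1.94, and Tssk4, at 6.61 ± 1.05 CPM per kb, overlapped, and Tssk5 was lowest at 0.913 ± 0.189 CPM per kb. The place of Tssk1 rests on its annotated length of 3700 bases. With the RefSeq length of 1451 bases its level was 19.7 CPM per kb in WT and 53.1 in Xap5l KO, which is above that of Tssk4.

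In Xap5l KO sperm the order at the top was Tssk2, at 548 ± 67.7, then Tssk6, at 317 ± 36.2 CPM per kb, with no overlap between them. Tssk3 (83.1 ± 45.0 CPM per kb) came next. Tssk4 (24.6 ± 7.70) and Tssk1 (20.8 ± 3.38 CPM per kb) overlapped, and Tssk5 (4.03 ± 0.960 CPM per kb) remained lowest. The log2 ratio of Tssk2 to Tssk6 per kb was -0.32, 0.15 and 0.12 in WT and 0.95, 0.80 and 0.61 in Xap5l KO, so every Xap5l KO library was higher than every WT library, by 0.80 on average (exact permutation test, p = 0.1, adjusted 0.136), as in most pairs of the family.

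As a share of the summed level of the family per kb, Tssk2 was 43.2% ± 3.98 in WT and 55.0% ± 4.0 in Xap5l KO, and Tssk6 was 43.6% ± 3.83 in WT and 31.8% ± 1.52 in Xap5l KO (SD, n = 3 each). Neither share overlapped between genotypes. The shares of Tssk1 (0.953% and 2.12%), Tssk4 (0.829% and 2.51%) and Tssk5 (0.113% and 0.406%) were also higher in every Xap5l KO library, while that of Tssk3 (11.4% and 8.20%) overlapped. The genes that were upregulated therefore remained minor components of the family transcripts in sperm. The share of Tssk1 rests on its annotated length of 3700 bases and would be larger in both genotypes with the RefSeq length of 1451 bases. That of Tssk6 may include reads of Ndufa13. The summed level itself overlapped between genotypes, at 617 to 1250 CPM per kb in WT against 874 to 1062 CPM per kb in Xap5l KO, with WT replicate 1 highest.

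**Figure D3:**
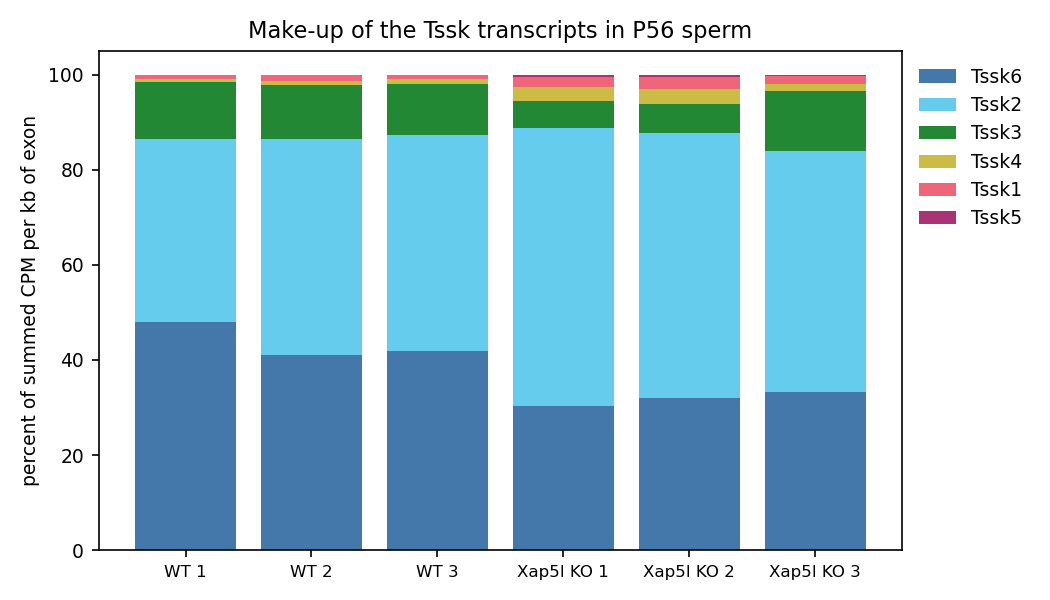
Share of each Tssk gene in the summed Tssk level of each sperm library, in percent of CPM per kb of exon, as stacked bars, with the annotated length of 3700 bases for Tssk1. The Tssk2 share is larger and the Tssk6 share smaller in the 3 Xap5l KO libraries than in the 3 WT libraries.

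In P16 testes the Tssk transcripts were close to the limit of detection, and no Tssk gene was called. At this age the first wave of spermatogenesis is still in meiosis, and few if any spermatids are present. Whether this accounts for the low Tssk counts was not tested. Only Tssk1, Tssk4 and Tssk6 passed the filter on low counts. None of the 3 was called in either direction by edgeR or by DESeq2, against 4.15% called higher and 10.9% called lower of the 16821 genes tested, and at an unadjusted p under 0.05 with the fold threshold 1 gene, Tssk1, was lower.

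Tssk1 was counted 32, 20 and 24 times in the WT testes libraries, against 6, 8 and 14 times in the Xap5 cKO libraries. All Xap5 cKO libraries were below all WT libraries, as for 32.4% of all genes tested (29.9% of genes, and no Tssk gene tested, had the opposite order), and the log2 fold change was -1.34 (SE 0.582, edgeR adjusted p = 0.0802). The testis table listed a second entry for Tssk1, with identical counts in 5 of 6 libraries. When such entries were summed the log2 fold change was -1.31 (edgeR adjusted p = 0.0487), but entries with identical counts may hold the same reads, and a sum that counts reads again adds no information, so this value is not read as a call. Tssk4 was counted 18, 24 and 49 times in the WT libraries, against 22, 54 and 29 times in the Xap5 cKO libraries, with overlapping groups and a log2 fold change of 0.30 (SE 0.537, edgeR adjusted p = 0.666). Tssk6 was counted 39, 38 and 33 times in the WT libraries, against 22, 17 and 34 times in the Xap5 cKO libraries, with a log2 fold change of -0.49 (SE 0.455, edgeR adjusted p = 0.390). Here the highest Xap5 cKO library lay within the WT range.

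The 3 genes that did not pass the filter were counted fewer than 20 times in every testis library. Tssk2 was counted 2, 9 and 9 times in the WT libraries, against 17, 6 and 5 times in the Xap5 cKO libraries, and Tssk3 had 11, 8 and 10 in WT and 0, 7 and 19 in Xap5 cKO. Both overlapped between genotypes. Tssk5 had 14, 17 and 4 counts in WT and 0 in all 3 Xap5 cKO libraries. Set against a floor of 3 counts per library, the mean WT level of Tssk5 was 3.65-fold above the floor, but WT replicate 3, at 4 counts, was close to it. Tssk5 was called lower only when the filter on low counts was dropped (edgeR adjusted p = 0.0205) or when WT replicate 3 or any Xap5 cKO replicate was left out, which lets it pass the filter. It entered these fits through its WT counts alone, so they are not read as calls.

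Proteins that work with the Tssk kinases were followed through a list of 12 genes. In sperm 2 of the 12 were upregulated in Xap5l KO and none was called lower by edgeR, by DESeq2 or at an unadjusted p under 0.05 with the fold threshold, against 7.59% higher and 1.27% lower of all genes tested, and the median log2 fold change was 0.34. Izumo1, which encodes the sperm protein that binds the egg, was counted 344, 375 and 380 times in the WT libraries, against 1242, 1783 and 1105 times in the Xap5l KO libraries. All Xap5l KO libraries were higher, and the log2 fold change was 1.65 (SE 0.264, edgeR adjusted p = 0.0128). Spag16, which encodes a protein of the axonemal central apparatus, was counted 389, 377 and 316 times in the WT libraries, against 639, 1179 and 1019 times in the Xap5l KO libraries, with a log2 fold change of 1.05 (SE 0.239, edgeR adjusted p = 0.0263).

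By edgeR with TMM the direct partners TSKS, ODF2 and TSACC were not called in sperm, a result that for Odf2 changed with the processing. Tsks, which encodes the shared substrate of TSSK1 and TSSK2, had mean levels of 157 CPM (WT) and 249 CPM (Xap5l KO), with no overlap (log2 fold change 0.66, edgeR adjusted p = 0.12). Odf2 likewise had no overlap, at 1650 and 3227 CPM (log2 fold change 0.97, edgeR adjusted p = 0.0846). It was called higher by DESeq2 (1.01, DESeq2 adjusted p = 0.00393), with library size alone (1.02, edgeR adjusted p = 0.0339) and without WT replicate 1 (1.23, edgeR adjusted p = 0.0381). Tsacc, which encodes a co-chaperone that binds TSSK kinases, differed little in its mean, at 98.2 and 102.7 CPM (log2 fold change 0.06, edgeR adjusted p = 0.869). Of the chaperones, Hsp90aa1 had a log2 fold change of 0.23 and Hsp90ab1 of -0.85 (edgeR adjusted p 0.556 and 0.0594). Ppp1cc, a protein phosphatase with a sperm isoform, had a log2 fold change of 0.56, the kinase gene Pdpk1 of -0.28, the histone gene H2afx of -0.56, and the genes of the transcription factors CREM and CREB1 of 0.45 and -0.63 (edgeR adjusted p 0.139 to 0.322). Of the 12 genes in the list, 5 did not overlap upward, and 2, Hsp90ab1 and Pdpk1, did not overlap downward. Over all genes tested the share was 19.2% in each direction.

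In testes 11 of the 12 genes were found under their symbol, all but H2afx, and 5 were downregulated in Xap5 cKO, against 10.9% of all genes tested, with a median log2 fold change of -1.0. Spag16 fell from 995, 924 and 411 counts in WT to 8, 5 and 27 in Xap5 cKO, a log2 fold change of -5.76 (SE 0.575, edgeR adjusted p = 5.94e-05). Tsacc fell by 1.72 (adjusted p = 0.000868), Crem by 1.2 (adjusted p = 0.000377), Odf2 by 1.06 (adjusted p = 0.000233) and Hsp90aa1 by 1.0 (adjusted p = 4.44e-05) on the log2 scale by the same edgeR test. No Xap5 cKO library reached the WT range for any of the 5. All Xap5 cKO libraries were below all WT libraries for 9 of the 11 genes and for 32.4% of all genes tested. The opposite order held for 2 of the 11 and for 29.9% of all genes. Hsp90aa1 lay just past the fold threshold and fell just short of it by DESeq2 (-0.99). WT replicate 3 was the lowest WT library for Spag16, Tsacc and Odf2. Pdpk1, Ppp1cc, Hsp90ab1 and Creb1 passed the adjusted p, as 28.1% of all genes did downward and 25% upward, but not the fold threshold, with log2 fold changes of -0.51, -0.21, 0.21 and 0.28. Izumo1 (-1.45, edgeR adjusted p = 0.0665) and Tsks (-0.75, edgeR adjusted p = 0.16) did not pass the adjusted p.

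Among 18 kinases of the AMPK-related branch outside the Tssk family, 2 were upregulated in Xap5l KO sperm and none was called lower by edgeR, by DESeq2 or at an unadjusted p under 0.05 with the fold threshold, and the median log2 fold change was 0.02. With 7.59% of all genes tested called higher, 2 of 18 is near the background share. The upregulated genes were Brsk1 (7.10 to 16.8 CPM, log2 fold change 1.24, edgeR adjusted p = 0.0313) and Brsk2 (3.13 to 6.77 CPM, log2 fold change 1.11, edgeR adjusted p = 0.0202), which encode kinases known from the polarity of neurons. In Xap5 cKO testes Brsk2 fell by 1.34 (edgeR adjusted p = 5.42e-05), as did Melk, which encodes a kinase of dividing cells (-1.34, edgeR adjusted p = 4.41e-05), and the list's median was -0.07. Here too 2 of 18 called lower is near the background share of 10.9%.

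A list of 12 other kinases of male germ cells held 3 upregulated genes in Xap5l KO sperm, against 7.59% of all genes tested, with a median log2 fold change of 0.47. These were Hipk4, needed for shaping of the spermatid head (10.7 to 49.8 CPM, log2 fold change 2.22, edgeR adjusted p = 0.0122), Mak, a kinase that acts in cilia (1.33, edgeR adjusted p = 0.0297), and Stk33, a kinase of the sperm tail (1.0, edgeR adjusted p = 0.0314). In Xap5 cKO testes 6 of the 12 were downregulated, against 10.9% of all genes tested, and the median was -1.0. By p-value the first were Stk31 (-1.55), Mak (-3.40), Mapk15 (-4.44), Stk33 (-2.45) and Aurkc (-1.48), with edgeR adjusted p-values of 8.8e-06 to 0.00586. All calls of these kinase and partner lists in sperm fell short of the threshold when replicate 2 or 3 of WT or replicate 2 of Xap5l KO was omitted, and 2 calls were made when replicate 1 of Xap5l KO was omitted. The 2 comparisons come from different tissues, ages and deleted genes, and the difference between their effects was not tested.

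**Figure D4:**
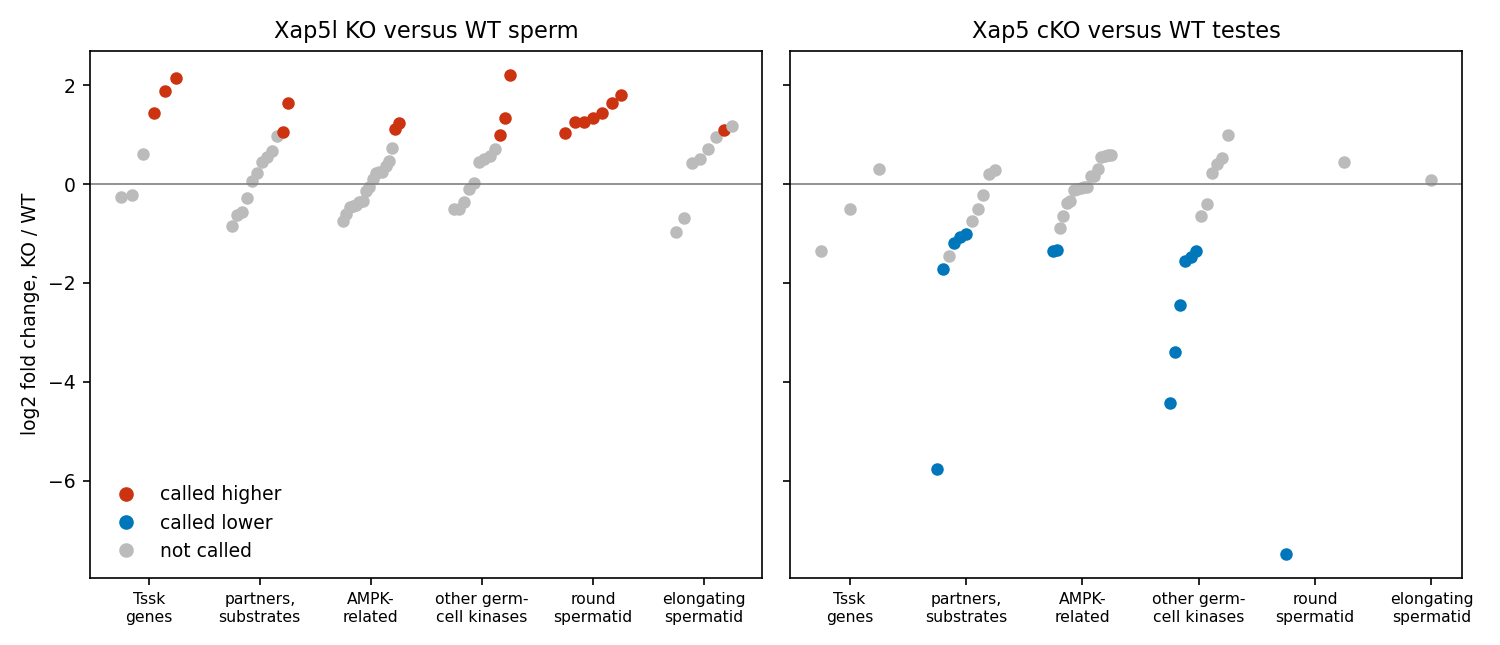
Log2 fold changes of the tested genes of 6 lists in Xap5l KO versus WT sperm (left) and Xap5 cKO versus WT testes (right), with a point per gene and called genes in color. In sperm 3 of 6 Tssk genes and all 7 round spermatid markers are called higher, and in testes every called gene lies below 0 and no Tssk gene is called.

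Markers of round spermatids, and part of those of pachytene spermatocytes, were higher in the same sperm libraries as Tssk1, Tssk4 and Tssk5. In sperm all 7 markers of round spermatids were called higher in Xap5l KO, with a median log2 fold change of 1.34 and a summed level of 75.8 to 102 CPM (WT) against 165 to 300 CPM (Xap5l KO). Acr alone of the 7 had overlapping groups. Over all genes tested, 7.59% were called higher and 1.27% lower, and 19.2% did not overlap in each direction. The markers were chosen after their values were seen. Of 8 markers of elongating spermatids 1, Akap4, was called higher, near the share over all genes. In this list 6 had positive log2 fold changes (list median 0.60), of which Prm2, Gapdhs and Akap4 did not overlap between genotypes. Smcp (-0.97) and Odf1 (-0.69), neither called, made up most of the list's summed level, which overlapped at 52407 to 129871 CPM (WT) against 44899 to 83941 CPM (Xap5l KO), with WT replicate 1 highest. Of 6 markers of pachytene spermatocytes 2 were called higher, with a sum of 1597 to 2563 CPM (WT) against 3198 to 3403 CPM (Xap5l KO). Of the markers of spermatogonia (5 tested) and of leptotene and zygotene spermatocytes (6 tested), 0 were called by edgeR in sperm and 0 passed an unadjusted p under 0.05 with the fold threshold. The summed markers of leukocytes were lower in Xap5l KO (121 to 429 CPM against 670 to 745 CPM in WT, 1 of 6 called lower), and so were those of general epithelium (162 to 226 CPM against 244 to 279 CPM, 0 of 4 called by edgeR and 0 at an unadjusted p under 0.05 with the fold threshold). The sum of Sertoli cell markers was higher in Xap5l KO (1052 to 1328 CPM against 637 to 758 CPM) and consisted mostly of Clu (0.81, edgeR adjusted p = 0.0703), whereas Cldn11 was called lower. The sum of epididymal markers overlapped (3929 to 5265 against 5215 to 7264 CPM) and was nearly all Crisp1, with Lcn5, Lcn8 and Adam28 near 0 and not tested. The Leydig cell sum was lower in Xap5l KO (7.24 to 14.7 CPM against 15.1 to 33.6 CPM). The erythroid sum overlapped (1094 to 3677 CPM against 2932 to 14656 CPM), with WT replicate 1 highest. Of 4 tested Leydig cell and 3 erythroid markers 0 were called by edgeR. At an unadjusted p under 0.05 with the fold threshold, 2 and 3 of them were lower. More or fewer cells of a type and more or less RNA per cell cannot be told apart in bulk samples, and the part of these cells in the Tssk results was not tested.

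In testes most spermatid markers had low levels, with Acr and Spaca1 as the exceptions. The 8 markers of elongating spermatids summed to 4.80 to 5.45 CPM in WT against 4.70 to 5.84 CPM in Xap5 cKO, and Prm2 and Smcp were at 0 in all 6 libraries. The 7 markers of round spermatids summed to 17 to 34.4 CPM in WT, with replicate 3 lowest, and 9.54 to 11.7 CPM in Xap5 cKO. Of these, Acr fell (log2 fold change -7.48, edgeR adjusted p = 3.28e-05), Spaca1 was not called (0.44, edgeR adjusted p = 0.131), and 5 did not pass the filter. All 6 markers of pachytene spermatocytes were called lower, with a sum of 1014 to 2060 CPM in WT against 150 to 233 CPM in Xap5 cKO, while the summed Sertoli cell markers were higher in Xap5 cKO (6817 to 8441 CPM against 3952 to 4362 CPM, 1 of 6 called higher). Of 6 markers of leptotene and zygotene spermatocytes 5 were called lower, with a sum of 1326 to 1528 CPM in WT against 654 to 907 CPM in Xap5 cKO. Spermatogonia markers summed to 560 to 661 CPM in WT against 425 to 455 CPM in Xap5 cKO, and peritubular myoid markers to 489 to 643 against 698 to 764 CPM. In both lists 0 were called by edgeR. By adjusted p alone, 4 of 6 spermatogonia markers were lower and 1 higher, against 28.1% and 25% of all genes, and 2 of 4 myoid markers were higher. Among 5 tested leukocyte markers 4 were called higher, and among 5 Leydig cell markers 2. Over all genes tested, 10.9% were called lower and 4.15% higher. The part of all these cells in the partner and kinase results was not tested.

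Genes next to the Tssk genes were mostly not called, as were most genes tested. Neighbors were the nearest protein-coding genes that lie wholly to a side of a Tssk gene. Ndufa13 and Yjefn3, which overlap Tssk6, were thus not among them. Of these 11 neighbors, 9 were tested in sperm and 1 was upregulated, near the share of 7.59% of all genes tested. It was Fam229a, which lies 168 bases from Tssk3, itself not called (Fam229a 35.5 to 78.9 CPM, log2 fold change 1.15, edgeR adjusted p = 0.019). The neighbors of Tssk5, Hgh1 and Mroh1, had log2 fold changes of 0.59 and 0.66 (edgeR adjusted p 0.236 and 0.0534), and those of Tssk4, Tm9sf1 and Mdp1, of -0.43 and -0.51 (0.332 and 0.162). Dgcr2, which shares 63 exonic bases with Tssk1 on the opposite strand, had a value of 0.17 on this scale (edgeR adjusted p = 0.567). In testes 10 neighbors were tested and Mroh1 alone was called, at -1.54 (edgeR adjusted p = 2.16e-05), near the share of 10.9% of all genes called lower.

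The mean profile of the 6 genes over the 6 sperm libraries, on the log2 CPM scale centered for each gene, was compared with that of every gene with a mean of at least 1 CPM. The closest of these 16233 genes were Slc25a41, C1qtnf4 and Actl7a, with mean absolute differences of 0.03, 0.04 and 0.05, against a median of 0.60 over all genes. The members themselves were farther from their mean, from 0.14 for Tssk2 to 0.69 for Tssk3. Over the 6 testis libraries, where the mean is that of Tssk1, Tssk4 and Tssk6, the closest were Epop, Atxn7l2 and Dus4l, at 0.05, 0.05 and 0.07 against a median of 0.37.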

How the data were processed

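RNA-seq was analysed from 12 libraries grouped by the sample labels. The authors mapped reads to GRCm38/mm10 with HISAT2 (version 2.1.0 in the submitters' processing notes) and deposited raw counts per gene, without normalization, in a table per tissue; the counting tool, its treatment of multimapping reads and its use of strand are not given in the sources used here. Tissues were fitted separately with edgeR 4.0.16 (filterByExpr, TMM, quasi-likelihood test, genotype as the only term) under R 4.3.3, which was tested on simulated data. Counting error at these depths limits Tssk genes in testes, where 3 of 6 were not tested. Second entries of a gene in the testis table (1609) were kept apart. Exon lengths were taken from GENCODE, and promoters from RefSeq. Named genes were all Tssk genes, Fam50a and Fam50b, all partners and substrates, called genes of the other kinase lists (at most 5 per list, direction and tissue, by p) and the 3 nearest profiles per tissue. Most marker lists were given as summed levels, counts of called markers or both. Markers, neighbors, libraries and the printed promoter stretches and runs were chosen after their values were seen. Alternatives were no filter, at least 10 counts in every sample, DESeq2 size factors, library size alone, DESeq2 1.42.0, a replicate block, an adjusted p of 0.01, no fold threshold and each library left out. The members and lists were chosen with earlier results of these data known.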

Additional observations from a re-analysis of the deposited data

How the results depend on the processing

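Leaving out a library in turn gave 0 to 3 called Tssk genes in sperm, 0 to 3 called partners and substrates, 0 to 2 AMPK-related kinases and 0 to 3 other germ-cell kinases, all higher. The log2 fold changes were 1.28 to 1.64 (Tssk1), 0.46 to 0.89 (Tssk2), -0.69 to 0.21 (Tssk3), 1.72 to 2.21 (Tssk4), 1.94 to 2.37 (Tssk5) and -0.48 to 0.23 (Tssk6). The sign turned for Tssk3 without WT replicate 1 (0.21) and Xap5l KO replicate 2 (0.01), for Tssk6 without WT replicate 1 (0.23), and for Tssk4 in testes without Xap5 cKO replicate 2 (-0.11, range -0.11 to 0.81). In testes 0 to 1 Tssk genes, the 1 being Tssk5, and 3 to 6 partners were called lower, with 3 partners without WT replicate 1. At an adjusted p under 0.01, 0 genes of the 4 lists were called in sperm, so Tssk1 (1.43), Tssk4 (1.90) and Tssk5 (2.14) lost their calls. With DESeq2 the same 3 kept them (adjusted p 7.65e-06, 7.79e-08 and 3.1e-09) and 3 partners were called, Odf2 (1.01) beside Izumo1 and Spag16. In testes 1 Tssk gene, Tssk5, was lower with no filter. Tssk5 entered that fit and those with a library left out through its WT counts alone, so these are not read as calls. With second entries summed 1, Tssk1 (-1.31), was lower, but the sum may count the same reads again (added after seeing the data). Without the fold threshold, 2 partners, 3 AMPK-related and 2 other germ-cell kinases were higher in testes and 5 AMPK-related kinases lower. Tssk1 could not be fitted in testes under a minimum of 10 counts in every sample. With the RefSeq length, also added later, Tssk1 was at 19.7 (WT) and 53.1 (Xap5l KO) CPM per kb. The cause of these changes was not tested.

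Same-numbered libraries did not deviate together more than others. Their correlations were -0.0809 to 0.149 in sperm and -0.0141 to 0.0125 in testes, against -0.138 to 0.178 and -0.0329 to 0.044 for other pairs. No pairing by number was seen, but 3 libraries per group cannot exclude it. With the replicate block, 1 AMPK-related kinase was called in sperm, and Tssk1, Tssk4 and Tssk5 had an adjusted p of 0.0281. The block changed no other count of these lists by over 1.5 times. In testes depth limits the Tssk genes, with at most 54 counts per library.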
